A study of Homo sapiens with 4 samples.

Results

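Integrins are the receptors by which cells hold on to extracellular matrix. The 10 integrin chains described here, 5 alpha chains (ITGA2, ITGA3, ITGA5, ITGA6 and ITGAV) and 5 beta chains (ITGB1, ITGB3, ITGB4, ITGB5 and ITGB8), were taken by gene symbol from a deposited count table of 15037 genes. Messenger RNA had been sequenced from A549 cells, an established human lung carcinoma line of epithelial type grown in DMEM. The samples were 2 libraries from cells with a knockdown of PSME4 (PSME4 KD), which encodes a cap of the proteasome core particle, and 2 libraries from cells with a control knockdown (control KD), for which RFP, a fluorescent protein that human cells do not make, is named as the target. Neither the knockdown reagent nor the use of separate cultures for the libraries of 1 group is stated. All p-values below therefore rest on library-to-library spread alone, and that spread may be purely technical. The study's title concerns tumour immunogenicity in lung cancer, and the comparison asks which transcripts differ once PSME4 is depleted.

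An integrin is a pair of 1 alpha and 1 beta chain, each crossing the membrane with a large outer part and, in most chains, a short inner tail. ITGB1 encodes the common beta chain, which pairs with the products of ITGA2 (a collagen receptor), ITGA3 and ITGA6 (laminin receptors), ITGA5 (the fibronectin receptor) and ITGAV. The ITGAV chain also pairs with those of ITGB3, ITGB5 and ITGB8 and binds vitronectin or the latent form of TGF-beta. The ITGB4 chain pairs with that of ITGA6 only, and together they anchor epithelial cells to laminin in hemidesmosomes.

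Of the 10 integrin chains, ITGA6 and ITGB4 fell in PSME4 KD cells, none rose, and 8 did not pass the test. The calls come from the quasi-likelihood test of edgeR at a threshold of 0.05, with p-values adjusted by Benjamini-Hochberg over all 13497 tested genes, and all 10 chains were among the genes tested. Over all tested genes 6.0% were called lower and 4.56% higher in PSME4 KD, 10.6% in either direction. The median log2 fold change (PSME4 KD over control KD) was −0.18 over the 10 chains and −0.0021 over all tested genes. Without control KD 2 the median of the chains was 0.02 and 5 were negative, and without control KD 1 it was −0.49 with 7 negative. These counts and medians describe the chains and were not tested against other genes. In bulk RNA, fewer cells of a type and less RNA per cell cannot be told apart.

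The tails of the alpha chains share a conserved stretch just inside the membrane, by which the alpha and the beta chain hold each other in the resting state. Its coding sequence is shown for 4 of the chains, because all 5 alpha chains hold it, while the beta chains held no match. Each line is the coding strand of the longest coding transcript in GENCODE 29 on GRCh38, 5′ to 3′. The capitals mark the in-frame match to the codons of the GFFKR motif, searched on the coding strand only, within the last 300 coding bases, with any base allowed at the last position of each codon and also at the start of the final codon, so that some codons of other residues match too.
ITGA6: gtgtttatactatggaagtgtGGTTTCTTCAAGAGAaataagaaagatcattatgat
ITGA2: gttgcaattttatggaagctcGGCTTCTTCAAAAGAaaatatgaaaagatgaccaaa
ITGAV: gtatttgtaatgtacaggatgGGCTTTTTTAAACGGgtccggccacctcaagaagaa
ITGA5: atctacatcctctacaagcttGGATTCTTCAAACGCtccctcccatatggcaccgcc
All 5 alpha chains held this match once, against 23 of 19484 coding genes (0.118%). The stretch shown lies at bases 3097 to 3153 of the 3222 coding bases of ITGA6 and at bases 3448 to 3504 of 3546 in ITGA2. It lies at bases 3034 to 3090 of 3147 in ITGAV and at bases 3049 to 3105 of 3150 in ITGA5.

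The beta tails carry a different motif, which binds talin, the protein that links integrins to actin and switches them on. Here the capitals mark the in-frame match to the codons of the NPxY motif in the same window, with any base allowed at the last position of each codon and in the whole x codon, shown for the most abundant beta chain and for ITGB5.
ITGB1: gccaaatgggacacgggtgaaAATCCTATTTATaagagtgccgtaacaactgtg
ITGB5: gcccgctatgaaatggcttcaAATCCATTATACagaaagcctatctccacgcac
ITGB1 held 2 such matches and ITGB3 and ITGB5 held 1 each. ITGB4 and ITGB8 held 0 within this window. Of the 19484 coding genes, 1.83% held a match. Some codons of other residues match here too, so this is not a share of genes with an NPxY motif. The stretches shown are bases 2317 to 2370 of 2397 in ITGB1 and bases 2290 to 2343 of 2400 in ITGB5.

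PSME4 itself stood at 75.3 and 85.1 CPM (read counts brought to a common library size) in PSME4 KD 1 and 2, against 158 and 180 CPM in control KD 1 and 2. This gave a log2 fold change of −1.08 (SE 0.20, adjusted p = 0.000855 by edgeR). With 1 library left out PSME4 was at −1.17 to −0.97, and most of these fits did not call even this gene. Total counts were 14845701 to 15208588 in the PSME4 KD libraries and 11766371 to 11769392 in the control KD libraries. The epithelial keratin KRT18 had 3090 to 4119 CPM in PSME4 KD and 2820 to 3570 CPM in control KD, and the adhesion protein CDH1 had 213 and 273 CPM in PSME4 KD and 201 and 229 CPM in control KD. EPCAM was low, at 6.76 to 7.88 CPM in PSME4 KD and 5.42 to 6.14 CPM in control KD, and the lung adenocarcinoma marker NAPSA had at most 0.525 CPM in any library. Of 10 markers of lung epithelium and carcinoma 8 were in the table and 7 could be tested. Of these 0 were called by edgeR, limma voom or DESeq2, where edgeR called 10.6% of all tested genes. With 7 genes this count cannot show that the markers were unchanged. An unadjusted p under 0.05 by edgeR was found for 0 of them, and the share of all tested genes at that p is not given.

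ITGA6, the laminin-binding alpha chain, had 64.3 and 64.2 CPM in PSME4 KD 1 and 2, against 87.6 and 119 CPM in control KD 1 and 2. The PSME4 KD libraries were level with each other and below both control KD libraries. ITGA6 was 1.61-fold lower in PSME4 KD, a log2 fold change of −0.69 (SE 0.20, adjusted p = 0.0293 by edgeR), from 1958 counts in PSME4 KD and 2402 in control KD. The gene lies on chromosome 2 at 172427336 to 172506459 on GRCh38. The counts are per gene, so the splice forms of its tail are not separated. It overlaps ITGA6-AS1 and PDK1-AS1, which have no row among the counted genes. The strand setting of the counting is not stated, so reads in these overlaps cannot be told apart.

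ITGB4, the beta chain of hemidesmosomes, had 13.3 and 10.8 CPM in PSME4 KD 1 and 2, against 25 and 16.7 CPM in control KD 1 and 2. Both PSME4 KD libraries lay below both control KD libraries, and the control KD libraries differed in the order opposite to that of ITGA6. ITGB4 was 1.73-fold lower in PSME4 KD, a log2 fold change of −0.79 (SE 0.25, adjusted p = 0.0397 by edgeR), from 367 counts in PSME4 KD and 483 in control KD. It lies on chromosome 17 at 75721459 to 75757818 on GRCh38 and overlaps GALK1, a galactose kinase gene, which had 5.64 to 6.50 CPM in PSME4 KD and 6.36 to 8.22 CPM in control KD. No source used here states the strand setting of the counting, so reads in the overlap cannot be told apart.

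The calls of ITGA6 and ITGB4 were near the threshold. In the authors' deposited table, which gives control KD over PSME4 KD, ITGA6 had a log2 value of 0.68 with an adjusted p of 0.0339 and ITGB4 a log2 value of 0.78 with an adjusted p of 0.0842, where 6.46% of the genes in that table had an adjusted p under 0.05. A second adjusted p in the authors' deposited table, by a method that is not stated, was 0.454 for ITGA6 and 0.602 for ITGB4. DESeq2 likewise called ITGA6 (adjusted p = 0.0259) and not ITGB4 (adjusted p = 0.0621). Fits with 1 library left out keep a single library in 1 group. Most genes called with 4 libraries lost their call there, as ITGA6 and ITGB4 did. ITGA6 was at −0.69 and −0.65 when PSME4 KD 1 or 2 was dropped, and at −0.90 and −0.44 when control KD 1 or 2 was dropped (adjusted p 0.0807 to 0.316). ITGB4 was at −0.94 and −0.63 when PSME4 KD 1 or 2 was dropped, and at −0.47 and −1.05 when control KD 1 or 2 was dropped (adjusted p 0.0781 to 0.448). All 8 of these values were negative, which follows from the groups not overlapping in either gene and adds nothing to it.

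**Figure D1:**
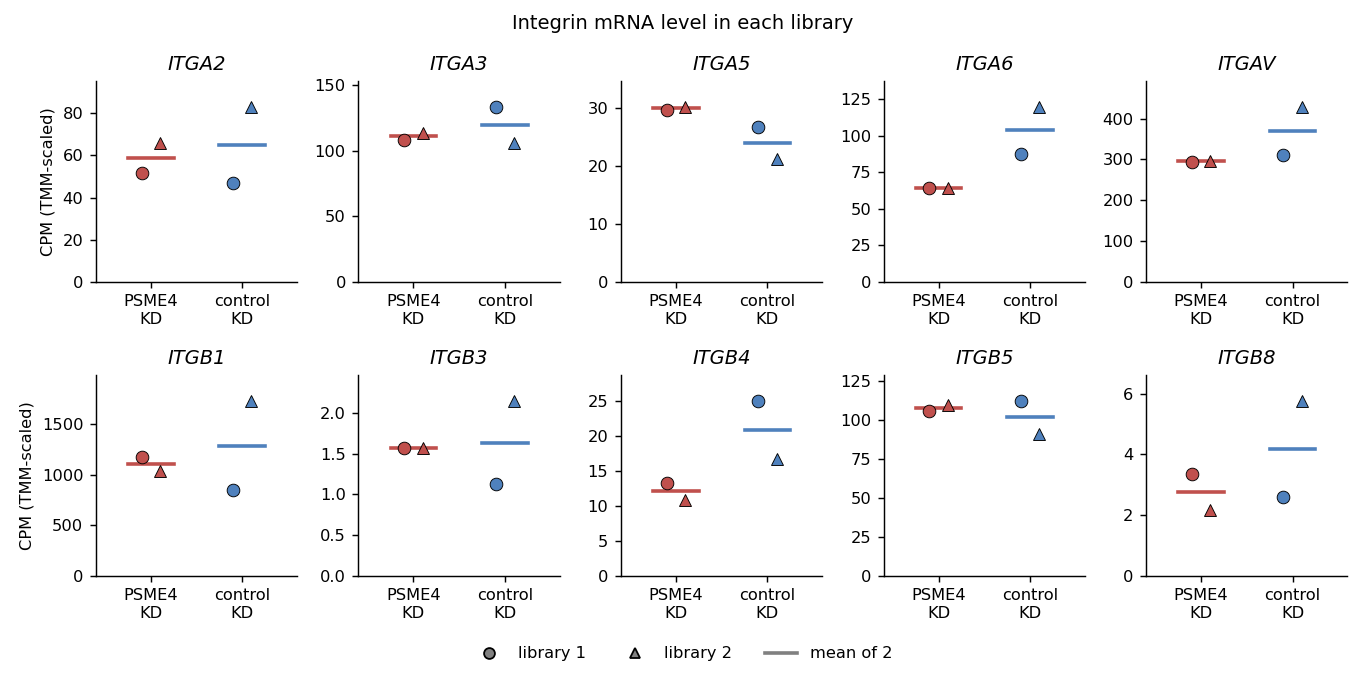
CPM of the 10 integrin chains in each library, with PSME4 KD left and control KD right in each panel; circles are library 1, triangles library 2 and the lines the mean of 2 libraries, and each axis starts at 0. ITGA6 and ITGB4 lie lower in both PSME4 KD libraries, while the control KD libraries of ITGB1 stand at 848 and 1732 CPM.

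The other alpha chains gave no call. ITGAV, the alpha chain of the vitronectin receptors, had 295 and 296 CPM in PSME4 KD 1 and 2, against 311 and 428 CPM in control KD 1 and 2. The groups did not overlap, and the log2 fold change was −0.32 (SE 0.20, adjusted p = 0.311 by edgeR). It shrank to −0.07 without control KD 2. ITGA5, the alpha chain of the fibronectin receptor, had 29.7 and 30.1 CPM in PSME4 KD against 26.6 and 21.2 CPM in control KD, again without overlap, and was at 0.32 (SE 0.22, adjusted p = 0.368 by edgeR). Groups did not overlap for 4 of the 10 chains (3 lower, 1 higher in PSME4 KD), where 55.0% of all tested genes did not overlap, 28.4% lower and 26.7% higher.

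ITGA3, a laminin receptor chain abundant in epithelia, had 108 and 114 CPM in PSME4 KD against 133 and 106 CPM in control KD. ITGA2, the collagen receptor chain, had 51.6 and 65.7 CPM in PSME4 KD against 46.8 and 82.9 CPM in control KD. In both genes the PSME4 KD values lay between those of the control KD libraries. The log2 fold changes were −0.11 (SE 0.20) for ITGA3 and −0.14 (SE 0.23) for ITGA2, with adjusted p-values of 0.779 and 0.736 by edgeR. Dropping control KD 1 put ITGA2 at −0.50 and ITGA3 at 0.07, and dropping control KD 2 put them at 0.33 and −0.26.

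ITGB1, the common beta chain, had the widest gap in CPM between the control KD libraries among the 10 chains. It had 1179 and 1041 CPM in PSME4 KD 1 and 2, against 848 and 1732 CPM in control KD 1 and 2, so that both PSME4 KD libraries fell between the control KD libraries. With 33816 counts in PSME4 KD and 29942 in control KD, counting error was small, and the log2 fold change of −0.22 (SE 0.24, adjusted p = 0.603 by edgeR) rested on the spread between libraries. Its sign followed the control library used, with 0.40 when control KD 2 was dropped and −0.64 when control KD 1 was.

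ITGB5, the vitronectin-binding partner of ITGAV, had 105 and 110 CPM in PSME4 KD against 112 and 91.0 CPM in control KD (log2 fold change 0.08, SE 0.20). Dropping control KD 1 put it at 0.24, and dropping control KD 2 put it at −0.05. ITGB8, whose pairing with the ITGAV chain presents latent TGF-beta, was scarce, with 51 and 33 counts (3.35 and 2.17 CPM) in PSME4 KD against 30 and 67 counts (2.60 and 5.76 CPM) in control KD. ITGB3, best known as a beta chain of platelets and osteoclasts, was scarcer, with 24 and 24 counts (1.58 and 1.57 CPM) in PSME4 KD against 13 and 25 counts (1.12 and 2.15 CPM) in control KD. Their log2 fold changes were −0.60 (SE 0.38) for ITGB8 and −0.06 (SE 0.44) for ITGB3, and a change of the size seen in ITGA6 was not detectable at this depth. The adjusted p-values of ITGB5, ITGB8 and ITGB3 were 0.833, 0.327 and 0.956 by edgeR. Without control KD 2, ITGB8 was at 0.09 and ITGB3 at 0.49, against −1.06 and −0.45 without control KD 1.

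**Figure D2:**
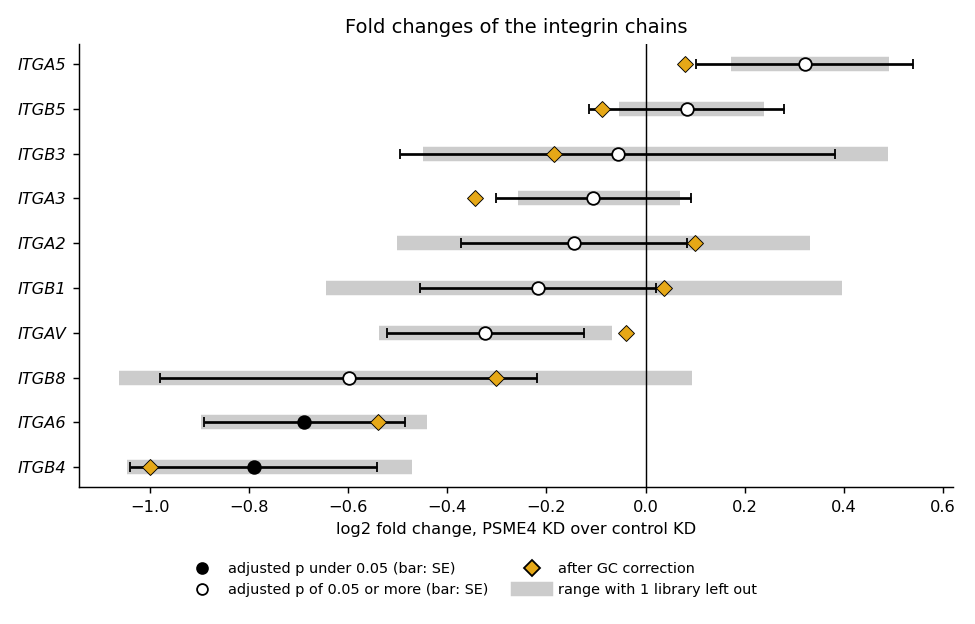
Log2 fold change of each chain, PSME4 KD over control KD, with circles for the fit to 4 libraries (bars are SE), diamonds for the fit with a GC correction, and grey bands for the range of the fits with 1 library left out. The filled circles are ITGB4 (−0.79) and ITGA6 (−0.69), whose bands stay below 0 because their groups do not overlap.

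Levels of different genes were set side by side as CPM per kb of the longest coding transcript. ITGB1 was at the top in both groups, with 311 and 275 CPM per kb in PSME4 KD 1 and 2 and 224 and 458 CPM per kb in control KD 1 and 2. ITGAV came next, with 41.9 and 42.1 CPM per kb in PSME4 KD and 44.2 and 60.9 CPM per kb in control KD. ITGB5 (24.1 and 25.1 in PSME4 KD, 25.6 and 20.8 in control KD, CPM per kb) and ITGA3 (22.1 and 23.3 in PSME4 KD, 27.2 and 21.6 in control KD, CPM per kb) were close neighbours. They did not overlap in PSME4 KD, overlapped in control KD, and stood in the other order there.

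ITGA6 followed at 11.4 and 11.4 CPM per kb in PSME4 KD and 15.6 and 21.3 CPM per kb in control KD, where its upper library overlapped ITGB5. ITGA2 and ITGA5, at a mean of 7.46 and 6.73 CPM per kb in PSME4 KD and 8.24 and 5.39 CPM per kb in control KD, overlapped in both groups. ITGB4 lay below them, at a mean of 2.04 ± 0.29 CPM per kb in PSME4 KD and 3.52 ± 0.99 CPM per kb in control KD (SD, n = 2 each). ITGB3 and ITGB8 were at the bottom, with at most 0.658 CPM per kb in any library, and overlapped in control KD.

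Summed per kb, the 5 beta chains came to 3.82 and 3.29 times the 5 alpha chains in PSME4 KD 1 and 2, and to 2.57 and 4.05 times in control KD 1 and 2. ITGB1 made up 92.0% and 90.9% of the beta sum in PSME4 KD and 88.0% and 94.9% in control KD. ITGAV made up 47.3% and 45.8% of the alpha sum in PSME4 KD and 44.7% and 51.1% in control KD. ITGA6 exceeded ITGB4 in length-scaled level by 5.11 and 6.25 times in PSME4 KD and by 3.69 and 7.54 times in control KD. In all 4 quantities the PSME4 KD libraries fell between the control KD libraries. These are mRNA levels, and no protein or paired receptor was measured.

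**Figure D3:**
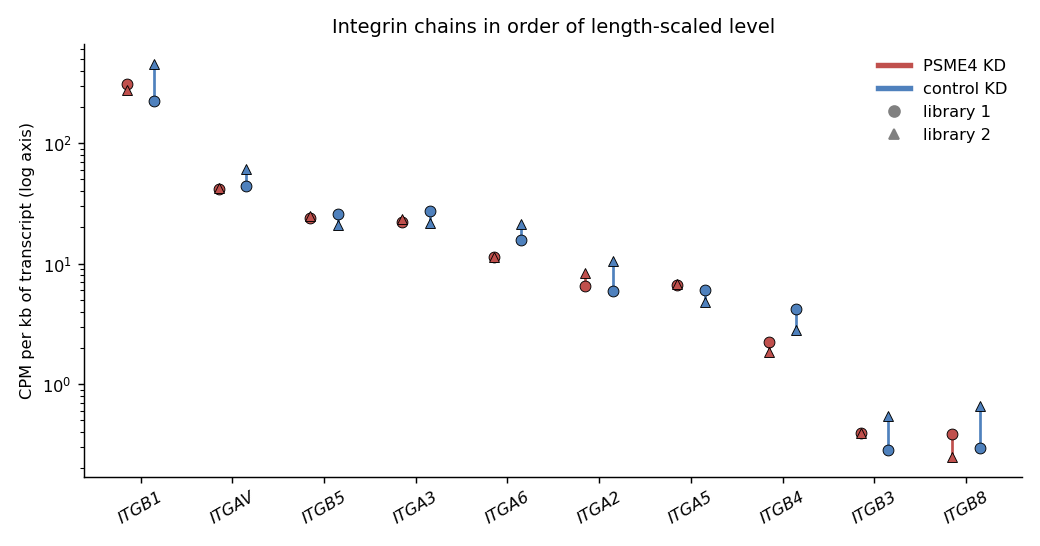
CPM per kb of transcript (log axis) for each chain, with PSME4 KD left and control KD right of each position, circles for library 1 and triangles for library 2. The order runs from ITGB1, at 275 or more in PSME4 KD, to ITGB3 and ITGB8, at most 0.395 in PSME4 KD.

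The base composition of the chains split the family. The transcripts of ITGB8 (37.8% GC), ITGAV (38.3%), ITGB1 (40.0%), ITGA2 (40.2%) and ITGA6 (42.9%) were AT-rich, and those of ITGB3 (52.3%), ITGB5 (54.3%), ITGA5 (58.7%), ITGA3 (60.9%) and ITGB4 (63.7%) were GC-rich. The third codon position showed the split more widely, from 38.5% GC in ITGB1 to 42.5% in ITGA6 among the first set and from 66.2% in ITGB3 to 82.8% in ITGB4 among the second, against a median of 58.4% over 12996 genes of the table.

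The difference between the control KD libraries followed this split. Control KD 2 over control KD 1 was 2.22-fold for ITGB8, 2.04-fold for ITGB1, 1.77-fold for ITGA2, 1.38-fold for ITGAV and 1.36-fold for ITGA6. It was 0.667-fold for ITGB4, 0.793-fold for ITGA3, 0.797-fold for ITGA5 and 0.812-fold for ITGB5, while ITGB3 was at 1.91-fold on 38 counts. Across the 10 chains, which share the same 2 libraries, Spearman's rho between GC content and this ratio was −0.88, as against −0.50 over 13205 tested genes. For PSME4 KD 2 over PSME4 KD 1 rho was 0.27 over the 10 chains and 0.097 over the tested genes, with ratios of 0.646-fold (ITGB8) to 1.27-fold (ITGA2).

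**Figure D4:**
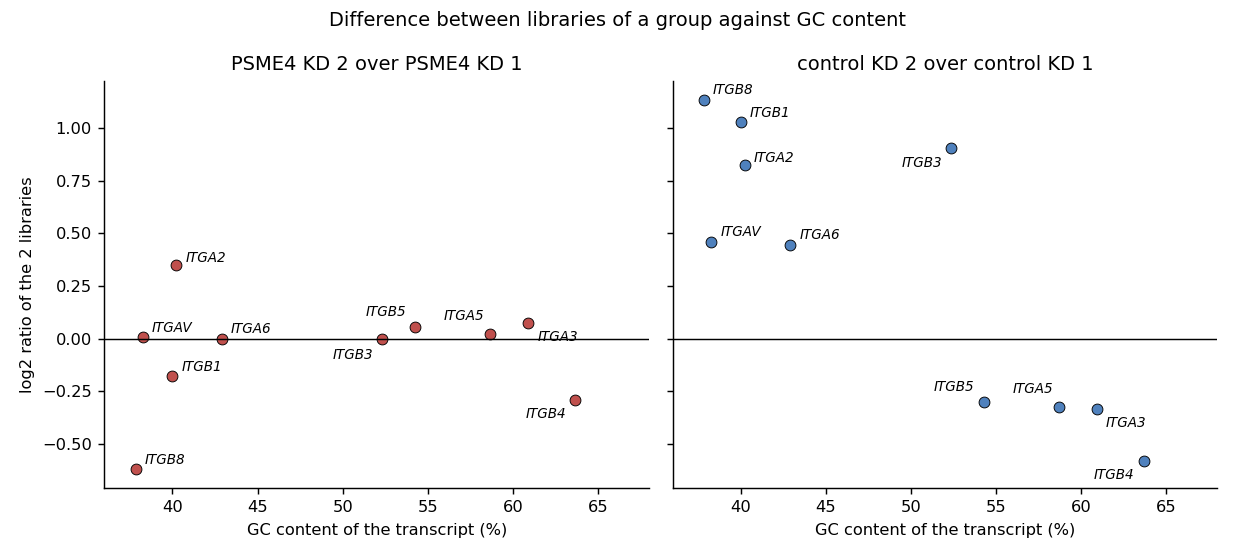
Log2 ratio of library 2 over library 1 within PSME4 KD (left) and within control KD (right) against the GC content of the transcript, 1 point per chain. In control KD the 5 AT-rich chains and ITGB3 lie above 0 and the other 4 GC-rich chains below it.

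Fold changes between the groups also moved with GC content, with a rho of 0.41 over 13205 tested genes and 0.26 over the 10 chains. Among 3285 tested genes with 37 to 43% GC, the range of the AT-rich chains, the median log2 fold change was −0.23, and 11% were called lower. Among 4318 genes with 52 to 64% GC it was 0.25, and 2.15% were called lower. ITGA6 fell among AT-rich genes and ITGB4 among GC-rich genes. After each library was corrected for a trend on GC content, ITGA6 was at −0.54 (adjusted p = 0.0484) and ITGB4 at −1.0 (adjusted p = 0.00456 by edgeR), and the same 2 of 10 chains were called, where 9.13% of all genes were called and 5.10% lower. ITGAV shrank to −0.04, ITGA5 to 0.08 and ITGB8 to −0.30, while ITGA3 moved further from 0, to −0.34, as did ITGB3, to −0.19. ITGB1 and ITGA2 changed sign, to 0.04 and 0.10, as did ITGB5, to −0.09.

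The tested genes whose 4 values lay closest to those of ITGA6 were RAD54B, LANCL1, ZBED5, UBA3 and RGS17, among 8747 candidates with a mean of at least 10 CPM. Their Euclidean distances from ITGA6 in centred log2 CPM over the 4 libraries were 0.0578 to 0.104. Their transcripts had 32.3 to 40.5% GC, against a median of 48.0% over 13205 tested genes. These genes were picked by the same 4 values, so their likeness to ITGA6 follows from the choice. Shared regulation was not tested.

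Of 16 further chains 11 had a row and 8 could be tested. Where 6.0% of all tested genes fell and 4.56% rose, 1 of these chains fell, none rose and 7 did not pass. The one that fell was ITGA4, an alpha chain best known from leukocytes that binds VCAM1 and fibronectin. It had 7.42 and 7.35 CPM in PSME4 KD against 12.8 and 14.6 CPM in control KD, a log2 fold change of −0.89 (SE 0.26, adjusted p = 0.0259 by edgeR). With 1 library left out ITGA4 was at −0.99 to −0.79 and, like most called genes, lost its call. ITGAE, a chain of intraepithelial lymphocytes, had 75.5 and 60.0 CPM in PSME4 KD against 107 and 85.0 CPM in control KD. Its value of −0.50 (SE 0.20) did not pass (adjusted p = 0.114 by edgeR), but it was called lower with the GC correction (−0.68, adjusted p = 0.0191 by edgeR).

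ITGA11, a collagen receptor chain of mesenchymal cells, had 13.7 and 18.4 CPM in PSME4 KD against 10.1 and 11.1 CPM in control KD (0.60, SE 0.25), and ITGB6, an epithelial partner of ITGAV, had 13.1 and 12.8 CPM in PSME4 KD against 10.1 and 11 CPM in control KD (0.29, SE 0.25). Neither passed. ITGA1, another collagen receptor chain, was at −0.06 (SE 0.21), ITGAM at 0.50 (SE 0.42), ITGAX at −0.50 (SE 0.48) and ITGA10 at 0.02 (SE 0.49), the last 3 at 2.36 CPM or less in each library. ITGA7, ITGA2B and ITGB7 had too few counts to be tested, at most 11 in any library.

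Integrin ligands moved in both directions. Of 37 tested ligands 3 rose, 5 fell and 29 did not pass, with a median log2 fold change of 0.021. Of all tested genes 4.56% rose and 6.0% fell, and the counts of ligands were not tested against these shares. LAMA4, a laminin alpha chain, fell (−2.14, SE 0.51, adjusted p = 0.00783 by edgeR), with 4 and 11 counts in PSME4 KD against 27 and 24 in control KD. The laminin chains LAMB3, at 0.27 (SE 0.50) with 7 to 36 counts per library, and LAMA5, at −0.41 (SE 0.22), did not pass.

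The basement membrane collagens COL4A1 (−1.86, SE 0.21) and COL4A2 (−0.75, SE 0.22) fell, as did SPP1 (−1.06, SE 0.21), the RGD-bearing osteopontin, with 1536 and 1247 CPM in PSME4 KD against 2507 and 3286 CPM in control KD. EDIL3, an RGD-bearing secreted protein that binds ITGAV receptors, rose (2.21, SE 0.50), with 47 and 33 counts in PSME4 KD against 4 and 9 in control KD. DESeq2 gave EDIL3 and LAMA4 no adjusted p, and called 1 ligand higher and 4 lower. The other increases were in COL4A6 (0.82, SE 0.25) and COL1A1 (0.73, SE 0.24), 2 genes named here after their values were seen, and neither passed after the GC correction. FN1, the ligand of the ITGA5 receptor, had 1271 and 1452 CPM in PSME4 KD against 1608 and 1326 CPM in control KD (−0.11, SE 0.20). VTN (−0.49, SE 0.23), TGFB1 (0.24, SE 0.22) and LTBP1 (−0.03, SE 0.20), which encode vitronectin, TGF-beta and its latency partner, did not pass. With the GC correction VTN was called lower (−0.70, adjusted p = 0.0230 by edgeR). Most genes called with 4 libraries lost their call when 1 library was left out. COL4A1 was called in all 4 fits with 1 library left out, SPP1, COL4A2, COL4A6 and COL1A1 in none, and EDIL3 and LAMA4 only without PSME4 KD 2.

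Proteins that bind integrin tails or build focal adhesions also moved both ways. Of 38 tested genes 4 rose, 2 fell and 32 did not pass, where 4.56% of all tested genes rose and 6.0% fell. The list had a median log2 fold change of 0.26 and a median GC content of 54.0%. Over all tested genes of 52 to 64% GC the median log2 fold change was 0.25. A difference between these medians was not tested. ITGB1BP1, which binds the ITGB1 tail and restrains the receptor, had 57.7 and 57.2 CPM in PSME4 KD against 119 and 88.2 CPM in control KD (−0.85, SE 0.20, adjusted p = 0.00862 by edgeR). RAP1A, a small GTPase that drives integrin activation, also fell (−0.86, SE 0.22). TGFB1I1 (0.95, SE 0.24), a relative of paxillin, rose, as did the actin crosslinker ACTN1 (0.82, SE 0.21), the tensin TNS2 (0.83, SE 0.25) and the adaptor GIT1 (0.72, SE 0.24).

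The core linkers of the tail did not pass. Talin (TLN1) was at 0.57 (SE 0.20), kindlin (FERMT2) at −0.41 (SE 0.20), ILK at 0.41 (SE 0.20), paxillin (PXN) at 0.43 (SE 0.21), focal adhesion kinase (PTK2) at −0.34 (SE 0.19) and vinculin (VCL) at −0.0038 (SE 0.20). TLN1 was called higher when scaled to library size alone (0.61, adjusted p = 0.0380 by edgeR) and with the filter of at least 50 counts (0.57, adjusted p = 0.0467 by edgeR), and was at 0.33 with the GC correction. With the GC correction TGFB1I1 was still called higher and ITGB1BP1 and RAP1A lower, while ACTN1 (0.61), TNS2 (0.60) and GIT1 (0.48) no longer passed. GIT1 did not pass with DESeq2 (adjusted p = 0.0624) or limma voom (adjusted p = 0.0603) either. Leaving out 1 library cost most called genes of the whole table their call. Of the 6 called genes, ACTN1 and GIT1 were called without PSME4 KD 2 and none in the other fits with 1 library left out, with ACTN1 at 0.46 and GIT1 at 0.40 without PSME4 KD 1.

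None of 13 tested membrane partners of integrins and none of 3 hemidesmosome genes passed by edgeR, limma voom or DESeq2. An unadjusted p under 0.05 by edgeR was found for 3 and 1 of them, with CD151 counted in both lists. The share of all tested genes at that unadjusted p is not given here, so these counts have no background beside them. CD151, the tetraspanin that binds laminin receptors, had 181 and 146 CPM in PSME4 KD against 132 and 109 CPM in control KD (0.44, SE 0.20, adjusted p = 0.151 by edgeR). The hemidesmosome linkers PLEC and DST, which join the ITGB4 tail to intermediate filaments, were at 0.06 (SE 0.24) and 0.04 (SE 0.20). Where 6.0% of all tested genes fell and 4.56% rose, 1 of 15 tested genes of integrin uptake and recycling fell and none rose. This was RAB5A, a GTPase of early endosomes (−0.61, SE 0.19, adjusted p = 0.0400 by edgeR). It did not pass after the GC correction (−0.45) or with any 1 library left out, where most called genes lost their call. VPS35, a retromer subunit, was at −0.56 (SE 0.19) and did not pass by edgeR (adjusted p = 0.0610), but was called lower with DESeq2 (adjusted p = 0.0452) and with the filter of at least 50 counts (adjusted p = 0.0468), so that 2 genes of the list fell there. COMMD3, which takes part in returning receptors from endosomes, was at −0.49 (SE 0.22) and was called lower with the GC correction (−0.64, adjusted p = 0.0299 by edgeR).

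**Figure D5:**
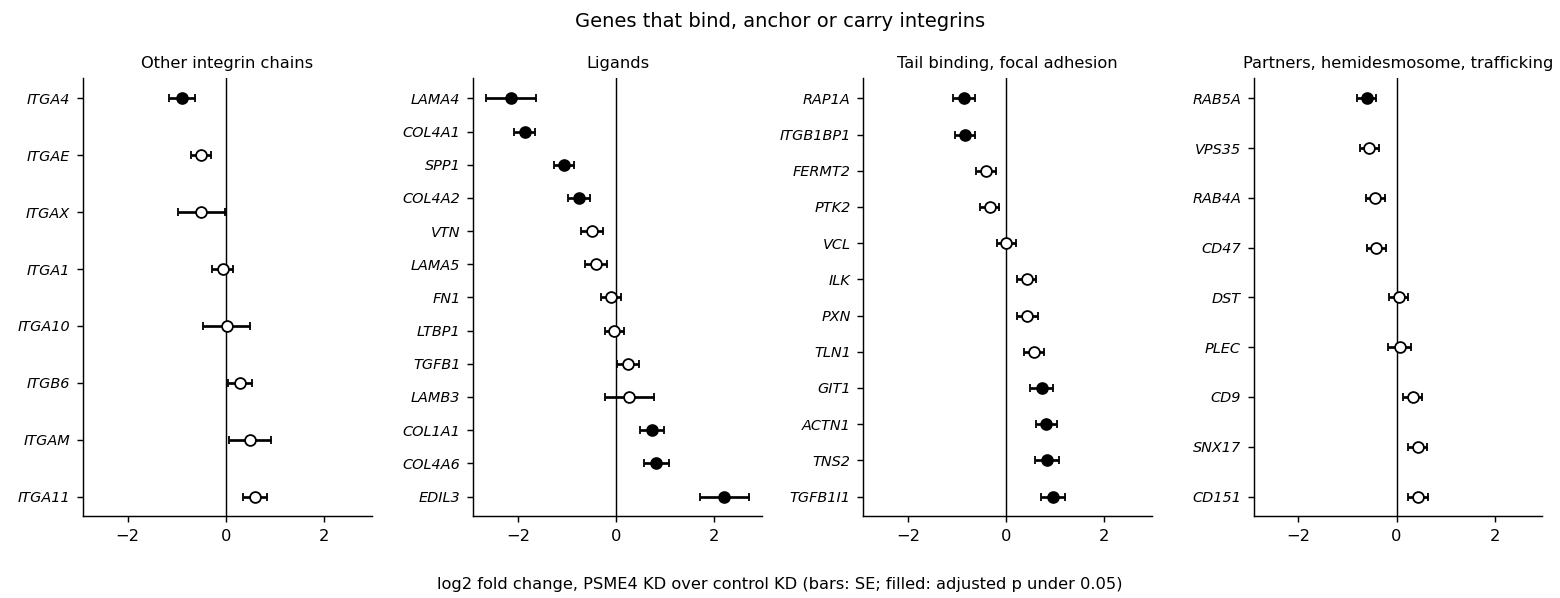
Log2 fold change (PSME4 KD over control KD, bars are SE) of further integrin chains and of genes that bind, anchor or carry integrins, with filled points past the threshold. Of the filled points, ITGA4, LAMA4, COL4A1, SPP1, COL4A2, RAP1A, ITGB1BP1 and RAB5A lie below 0, and COL1A1, COL4A6, EDIL3, GIT1, ACTN1, TNS2 and TGFB1I1 above it.

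Markers of other cell types had lower CPM than KRT18 and CDH1, but not lower than every epithelial marker. CD68 had 32.1 and 33.5 CPM in PSME4 KD and 28.5 and 23.7 CPM in control KD, above EPCAM. The 4 fibroblast markers with a row, out of 8, summed to 29.8 and 33.5 CPM in PSME4 KD and 23.5 and 24.9 CPM in control KD. COL1A1 was called higher and PDGFRA lower (−1.34, SE 0.43), where 4.56% of all tested genes rose and 6.0% fell. COL1A1 did not pass with DESeq2 (adjusted p = 0.0576) or limma voom (adjusted p = 0.0528), DESeq2 called 0 of the 4, and PDGFRA was not called without the filter on low counts or with the GC correction. The 4 leukocyte markers with a row, out of 8, summed to 41.2 and 41.8 CPM in PSME4 KD and 35.0 and 30.9 CPM in control KD, most of it CD68. The 2 endothelial markers with a row, out of 6, summed to 12.6 and 14.7 CPM in PSME4 KD and 14.6 and 16.2 CPM in control KD. The remaining markers of these lists, such as PTPRC, CD3E, COL1A2, COL3A1, DCN, PECAM1, VWF and CDH5, were not analysed here. The part of these genes' cell types in the integrin levels was not tested.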

How the data were processed

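Polyadenylated RNA of 4 A549 libraries was sequenced after preparation with a Lexogen SENSE kit, per the labels' protocols. The submitters' processing notes name cutadapt, STAR, DESeq2 and build hg38. The deposited table gives whole read counts per gene, and these counts were the input here. The authors' normalised signal (counts divided by a size factor) and their regularised log2 values were not used. The authors' deposited log2 fold changes and p-values, control KD over PSME4 KD, are quoted where named.

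Counts were scaled by TMM, filtered with filterByExpr and tested with edgeR 4.0.16 in R 4.3.3 (quasi-likelihood test of 2 against 2 libraries, residual df 2, Benjamini-Hochberg adjustment over all tested genes). The biological coefficient of variation was 15.3%. GC content and length came from GENCODE 29, where 14287 genes matched by symbol and 290 by a newer symbol. The GC correction was a lowess trend (span 0.4) per library. Alternatives were other scalings, DESeq2 1.42.0, limma voom 3.58.1, other filters, a replicate block, the GC correction and leaving out each library. The procedure was tested on simulated data: of 100 genes changed 2-fold 73 were called, and 6 of 13143 unchanged genes were. These simulated libraries held no GC trend, and the changed genes were picked at a mean of at least 50 counts. Both rates therefore need not hold for the real libraries or for scarce genes.

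Replicates differed by more than sampling noise (chi-square per degree of freedom 18.0 in PSME4 KD and 22.3 in control KD). The members and lists were chosen with earlier results of these data known. Named genes were PSME4, all 10 members, other integrin chains, the up to 6 genes of smallest p in each list, some fixed ligands and linkers, and the 5 genes nearest to ITGA6. COL1A1, COL4A6, DST and PDGFRA were added after their values were seen. The result of 1 called ligand that the rule names is not reported here.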

Additional observations from a re-analysis of the deposited data

How the results depend on the processing

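The number of integrin chains called was 2 under every scaling, filter, limma voom and GC setting, and 1 with DESeq2. It was 0 in each of the 4 fits with 1 library left out (range 0 to 0), where the lone library is assumed to vary like the other group. Over all genes 43 to 281 were called in those fits, against 1426 with 4 libraries. Scaling to library size alone gave 853 higher and 764 lower genes, against 616 and 810. The cause of these shifts was not tested beyond the loss of a library.

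Labels give both groups replicate numbers 1 and 2, and same-numbered libraries did not deviate together (correlation −0.043). With 2 libraries per group this value cannot show whether same-numbered libraries share a batch. The replicate block gave 1554 calls over all genes and 2 chains, changed no call of a chain, and with the GC correction gave 1796 calls and 2 chains. Under the replicate block ITGA10 was at −0.039 and VCL at 0.0067.

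No reversed value passed the threshold. VCL was at 0.0020 with DESeq2 size factors and with DESeq2, 0.037 with library size, 0.0067 with limma voom, 3.2e-05 with at least 50 counts, and 0.0062 with GC correction and replicate block. LTBP1 was at 0.010 with library size, and limma voom gave ITGB3 0.0065 and ITGA10 −0.095. With the GC correction, and then with the replicate block added, ITGA2 was at 0.10 and 0.12, ITGB1 at 0.037 and 0.092, ITGB5 at −0.087 and −0.085, ITGA10 at −0.13 and −0.19, ITGA1 at 0.20 and 0.20, SLC3A2 at −0.0090 and −0.0069, and PLEC at −0.12 and −0.12. With 1 library left out the ranges were −0.26 to 0.069 for ITGA3, −0.50 to 0.33 for ITGA2, −0.64 to 0.40 for ITGB1, −0.45 to 0.49 for ITGB3, −0.053 to 0.24 for ITGB5 and −1.06 to 0.094 for ITGB8. They were −0.82 to 0.56 for ITGA10, −0.25 to 0.15 for ITGA1, −0.23 to 0.036 for FN1, −0.10 to 0.21 for DST, −0.39 to 1.54 for LAMB3, −0.16 to 0.11 for LTBP1, −0.17 to 0.19 for VCL and −0.15 to 0.31 for PLEC. Depth limits ITGB3 and ITGB8, which had at most 67 counts in any library. Calls gained outside the 10 chains, given beside the genes above, were those of TLN1, VPS35, ITGAE, VTN and COMMD3, and with the GC correction and replicate block LAMA5 was also called (−0.58, adjusted p = 0.0172 by edgeR).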
